A study of Drosophila melanogaster with 56 samples.

Results

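A set of 7 genes of cuticular hydrocarbon and pheromone synthesis in Drosophila melanogaster were followed through whole-fly RNA-seq of both sexes in 8 genotypes of the Obp50a-d odorant binding protein cluster. The 7 genes were found by gene symbol or FlyBase identifier among the 17490 genes of the count table, and all 7 were among the 15675 genes that passed the filter on low counts. They were the fatty acid synthase FASN2, the elongases bond and eloF, the desaturases desat1, desat2 and desatF (written Fad2 in the table), and the cytochrome P450 Cyp4g1. All flies were Canton S (B) flies in which the cluster had been removed with CRISPR and a cloned version put back by PhiC31 integration. Every group, the intact one included, therefore carries a reinserted cluster with short leftover integration sites. The flies were mated, 3 to 5 days old, and pooled by 30 for each library, with the sexes kept apart.

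The groups differ in which paralogs can make protein. Obp50Pos has the 4 paralogs intact, Obp50Neg has premature stop codons in all 4, and Obp50a, Obp50b, Obp50c and Obp50d each keep the paralog they are named for. Obp50NegBCD has missense changes in Obp50b in place of the stop codons and stop codons in the other paralogs. Obp50cBCD has the same missense Obp50b with an intact Obp50c. Each genotype and sex has 4 libraries from 2 reinsertion lines, except Obp50Pos and Obp50d with 2 libraries from 1 line. Where a genotype has 1 line, the genotype and the line cannot be told apart. Headers of the deposited counts mark 14 of the 56 libraries as a second set and 3 as redos. The other 39 are called the first set here. All Obp50Neg libraries are of the first set, while the Obp50Pos libraries used and all female Obp50a libraries are of the second. In male Obp50a and in both sexes of Obp50cBCD the 2 lines come from different sets. In these comparisons the set cannot be told apart from the genotype or line. Nothing in the labels says whether the 2 libraries of a line came from separate cultures, so p-values measure the spread between these pools, which may be partly technical. A female Obp50Pos library and a female Obp50cBCD library were set aside, which follows the exclusions in the published methods. This left 28 male and 26 female libraries with 14638498 to 53517693 counts each.

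Cuticular hydrocarbons coat the fly, hold water in, and act as contact pheromones. They are made in oenocytes, specialised cells under the abdominal cuticle: a fatty acid synthase builds the chain, elongases lengthen it, desaturases place double bonds, a reductase makes an aldehyde, and Cyp4g1 removes the aldehyde carbon to leave the hydrocarbon. In this species desatF and eloF are known as the female members of the pathway and serve the long dienes that males court, desat1 works in both sexes, and desat2 gives the diene isomer of African and Caribbean females. In whole flies, fewer oenocytes and less RNA per oenocyte cannot be told apart. Nor can expression in other tissues, or the share that the ovary and other tissues hold in the RNA.

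The 7 genes lie on 4 chromosome arms in release 6 coordinates of the file headers. FASN2 (FBgn0042627) is at chr2L:3043947-3056143, bond (FBgn0260942) at chr3R:22550680-22556494, eloF (FBgn0037762) at chr3R:9814161-9815158, desatF (FBgn0029172) at chr3L:11023535-11024846 and Cyp4g1 (FBgn0010019) at chrX:467057-469335. The paralogs desat2 (FBgn0043043, chr3R:12436248-12437857) and desat1 (FBgn0086687, chr3R:12439600-12447616) are neighbours on the plus strand, 1742 bases apart. Counting did not use strand. The last 41 bases of desat2 are shared with CG17207 on the other strand, bond shares 2008 bases of its span with the antisense RNA asRNA:CR44062, Cyp4g1 lies inside the span of CG32816, and FASN2 spans the genes snRNA:U5:23D and snRNA:LU.

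**Figure D1:**
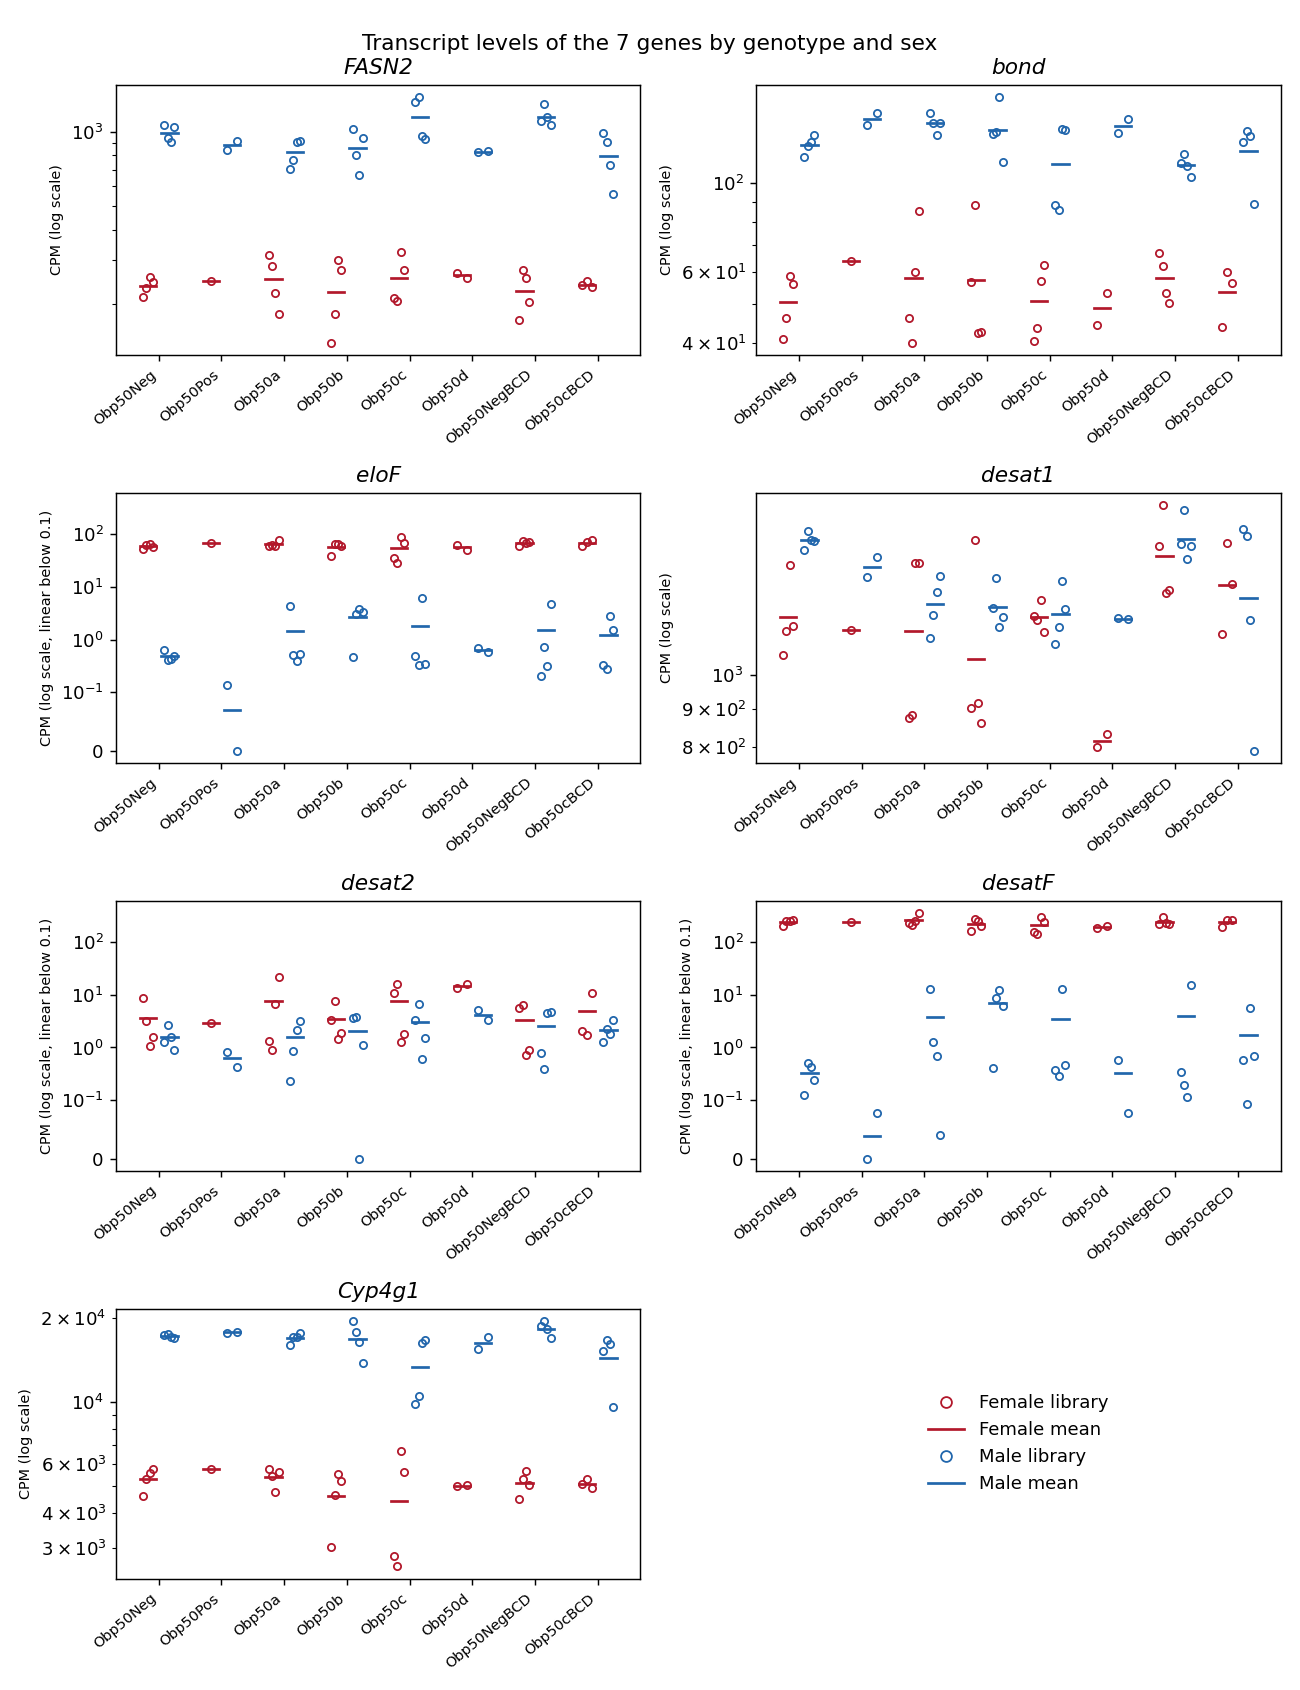
Transcript levels of the 7 genes in scaled CPM ( log axis, linear below 0.1 for eloF, desat2 and desatF) for each genotype. Open circles are libraries and bars are group means, red for females and blue for males. The female libraries of desatF lie between 139.6 and 350.1 CPM and the male ones between 0 and 15.4, while for Cyp4g1 and FASN2 the males lie above.

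Levels are in CPM (counts scaled to the effective library size, after TMM normalization). Means over the libraries of each sex were first compared per kilobase of exon, so that genes of different length can be ranked. Cyp4g1 was the most abundant of the 7 in both sexes, at 7152 in males and 2202 in females. In males it took 1.07 to 2.08% of all counts of a library, and in females 0.240 to 0.612%. Next in both sexes was desat1, at 532 in males and 476.5 in females. In males the order went on with FASN2 at 116, bond at 65.8, desatF at 2.22, desat2 at 1.62 and eloF at 1.45 CPM per kilobase. In females it went on with desatF at 174, eloF at 65.6, FASN2 at 29.4, bond at 28.5 and desat2 at 4.22. In males the means of the last 3 are close, with ranges over libraries that overlap, and in females those of FASN2 and bond are as close. By medians the male order of these 3 was another, with desat2 at 1.255, eloF at 0.537 and desatF at 0.344 CPM per kilobase. So desatF and eloF stand near the bottom of the male order and directly behind the 2 most abundant genes in females.

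The comparison of the sexes asked which of these genes are female or male biased in these flies. All 7 genes passed the test of the sex difference averaged over the 8 genotypes (edgeR quasi-likelihood, Benjamini-Hochberg adjusted p under 0.05 over 15675 genes), in a comparison where 83% of all genes did. Of these, 3 were higher in females (desatF, eloF and desat2), as 39.4% of all genes were, and 4 were higher in males (Cyp4g1, FASN2, bond and desat1), as 43.6% were. For 4 of the 7, desatF, eloF, Cyp4g1 and FASN2, no male library overlapped any female library, which held for 32.3% of all genes. The median log2 difference over all genes was -0.10, females minus males, and -0.30 with DESeq2 size factors, so that differences near these sizes depend on the scaling.

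In females desatF, the desaturase that places the second double bond of the female dienes, had a lowest level of 139.6, a median of 231.8 and a highest of 350.1 CPM over 26 libraries. In males it had 0, 0.451 and 15.4 CPM over 28 libraries. The lowest female library was thus well above the highest male one. The fitted difference was 7.63 on the log2 scale (SE 0.63), or 198-fold (adjusted p = 4.2e-15), and 12 genes of the 15675 had a larger female excess, so that desatF held rank 13.

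The elongase eloF, which lengthens the chains of the female dienes, followed the same order. Its female levels had a lowest value of 27.96, a median of 62.5 and a highest of 85.7 CPM, against 0, 0.501 and 6.12 CPM in males. The libraries of the sexes again did not overlap. The difference was 6.15 on the log2 scale (SE 0.39), or 70.9-fold (adjusted p = 7.77e-19), which gave eloF rank 58 in female excess among all genes.

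A further 3 genes were higher in males in every genotype, with every male library above every female library of its genotype. The share of all genes so separated within genotypes was not counted, here or for desat1 and desat2 below. In Obp50Pos the separation rests on 1 female and 2 male libraries, and in Obp50d on 2 of each sex. Cyp4g1, the decarbonylase of the last step, had 9630, 16970 and 19510 CPM in males (lowest, median, highest) and 2582, 5242 and 6699 in females, a log2 difference of -1.68 (SE 0.10), 3.21-fold (adjusted p = 1.15e-19). FASN2, the oenocyte fatty acid synthase, had 555.5, 927.6 and 1379 CPM in males and 138.7, 245.8 and 323.4 in females, a log2 difference of -1.94 (SE 0.10), 3.83-fold (adjusted p = 1.79e-22). The male to female ratios of these 2 genes were of like size. The elongase bond, which makes very long chains, had 85.7, 132 and 163.7 CPM in males and 40.1, 54.8 and 88.4 in females, a log2 difference of -1.22 (SE 0.09), 2.32-fold (adjusted p = 1.31e-16). Over all libraries bond overlapped slightly: 1 female library was at or above the lowest male library and 2 male libraries were at or below the highest female one.

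The 2 neighbouring desaturases moved in opposite directions and by less. The general fatty acid desaturase desat1 had 791.1, 1340 and 1661 CPM in males and 799.5, 1174 and 1687 in females, ranges that coincide. Its log2 difference was -0.19 (SE 0.07, adjusted p = 0.014), or -0.39 with DESeq2 size factors, and it was no longer called when counts were summed by line (adjusted p = 0.119) or when genes of low mean count were dropped (adjusted p = 0.0652). In 3 of the 8 genotypes every male library was above every female one. The paralog desat2 had 0, 1.703 and 6.62 CPM in males and 0.715, 3.035 and 21.3 in females. Its log2 difference was 1.38 (SE 0.40, adjusted p = 0.00174), and in 2 of the 8 genotypes every female library lay above every male one. The single desat2 value of 0 comes from a male Obp50b library and allows up to 0.0765 CPM (3 counts of the library total), which covers counting error only.

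**Figure D2:**
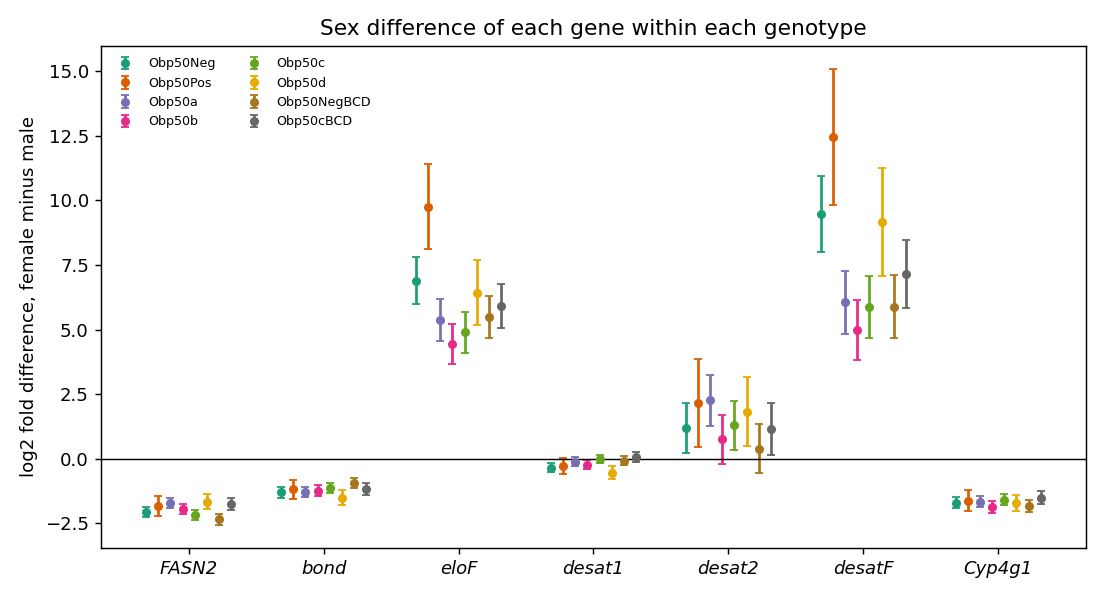
Log2 fold difference, females minus males, of each gene in each of the 8 genotypes (points, with the standard error of the edgeR fit as bars). The points of eloF and desatF lie far above 0 in every genotype, those of FASN2, bond and Cyp4g1 lie below 0 in every genotype, and those of desat1 lie on both sides.

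Within single genotypes the sex difference of Cyp4g1 ran from -1.87 to -1.50 on the log2 scale, that of FASN2 from -2.35 to -1.67 and that of bond from -1.50 to -0.93. For desat1 it ran from -0.54 in Obp50d to 0.06 in Obp50cBCD, and for desat2 from 0.38 in Obp50NegBCD to 2.27 in Obp50a. Those of eloF ran from 4.44 in Obp50b to 6.89 in Obp50Neg, and those of desatF from 4.98 in Obp50b to 9.48 in Obp50Neg, with Obp50Pos left out of both. Male Obp50Pos had almost no counts of these genes, 0 and 2 of desatF and 4 and 0 of eloF, so that a ratio there rests on single counts, and a count of 0 allows up to 0.106 CPM for desatF and up to 0.121 CPM for eloF. A joint test of whether the sex difference varied over the 8 genotypes called none of the 7 genes, where 1.97% of all genes were called (edgeR, 1 gene at an unadjusted p under 0.05, desatF, adjusted p = 0.283). DESeq2 also called none.

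Male levels of desatF and eloF varied from library to library, and they did so together with transcripts that mark female flies. In 8 of the 28 male libraries the yolk protein transcripts Yp1, Yp2 and Yp3 summed to 103.5 to 2459 CPM of the library total, and in the other 20 to 12.3 to 56.99 CPM. Females had 7123 to 33700. Chorion transcripts, made in the ovary, moved likewise, at 54.9 to 1319 CPM in the 8 libraries and 3.53 to 32.5 in the 20. Of the library total, desatF took 1.37 to 15.8 CPM in the 8 libraries and at most 1.025 in the 20, without overlap. For each 1000 CPM of yolk protein transcripts the 8 libraries held 6.42 to 13.6 CPM of desatF, all 8 inside the female range of 6.31 to 18.2.

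The ratio of eloF to yolk protein transcripts was less uniform. The 8 libraries held 1.99 to 6.65 CPM of eloF for each 1000 CPM of yolk protein transcripts, of which 4 were inside the female range of 1.71 to 4.04 and 4 above it. Of the other 20 male libraries 19 lay above the female range for eloF and 6 for desatF, and 6 of the 20 had more eloF than the lowest of the 8. One library with 24.05 CPM of yolk protein transcripts, the male Obp50cBCD library J3_S53 of line 5, still had 2.25 CPM of eloF and 1.025 of desatF. Accessory gland transcripts, made in males, were at 6474 to 9682 CPM in the 8 libraries and at 3262 to 9179 in the 20. The part of these female transcripts in the male values of desatF and eloF was not tested. Without the 8 libraries the sex difference was 9.73 on the log2 scale for desatF and 7.285 for eloF, larger than with them. This rise was fixed by the choice of libraries. The 8 hold the highest male values of desatF and the 7 highest of eloF. Male Obp50b then keeps a single library.

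**Figure D3:**
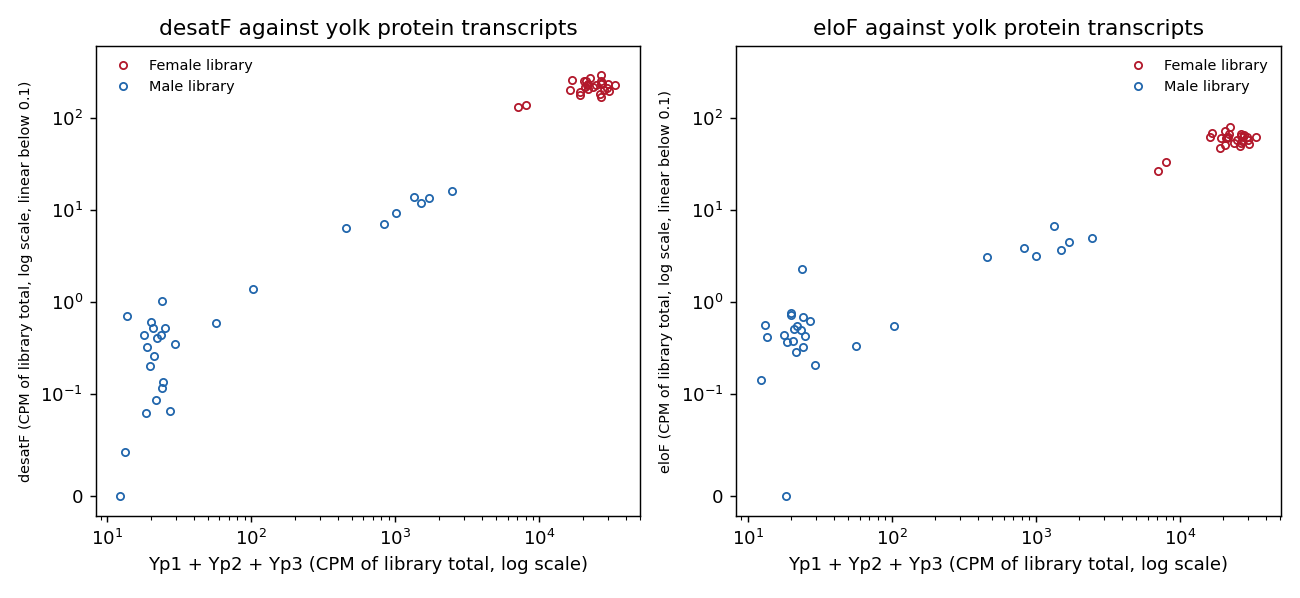
Levels of desatF (left) and eloF (right) against the summed level of the yolk protein transcripts Yp1, Yp2 and Yp3, each in CPM of the library total (log axes, the vertical one linear below 0.1), with 1 circle per library, red for females and blue for males. The 8 male libraries with 103.5 CPM or more of yolk protein transcripts lie between the other males and the females, and desatF rises along with them from 1.37 to 15.8 CPM.

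The comparison of genotypes asked whether the state of the Obp50a-d cluster went with a change in these 7 genes. A joint test over the 8 genotypes called none of them in males, where 2.98% of all genes were called, and none in females, where 24.6% were. At an unadjusted p under 0.05 there were 3 genes in males (desatF, eloF and FASN2) and 1 in females (desat1). DESeq2 called 2 in males, desatF and eloF, and 1 in females, desat1. No share of all genes is given here for the unadjusted counts or for DESeq2. Limma-voom with the line as a random block called none in either sex.

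In males the lowest of these p-values belonged to desatF (adjusted p = 0.0738). Male Obp50Neg had 0.432, 0.246, 0.125 and 0.509 CPM of desatF, Obp50Pos 0 and 0.0783, and Obp50d 0.580 and 0.0790. Male Obp50a had 13.04, 1.29, 0.679 and 0.0414 CPM, and male Obp50b 0.403, 8.76, 12.3 and 6.14. Male Obp50c had 0.3675, 0.293, 12.8 and 0.469 CPM, male Obp50NegBCD 0.1135, 15.4, 0.345 and 0.1925, and male Obp50cBCD 0.580, 0.0929, 5.64 and 0.681. Every value of 1.29 CPM or more is one of the 8 libraries with yolk protein transcripts. Both Obp50Pos values lie below every library of Obp50Neg, Obp50b, Obp50c and Obp50NegBCD, and rest on 0 and 2 counts. The largest contrast, Obp50b over Obp50Neg, was 4.38 on the log2 scale (SE 1.26, adjusted p = 0.149), and 3 of the 4 male Obp50b libraries are among the 8. Leaving out the 8 libraries takes away the highest desatF values and leaves male Obp50b with a single library. A joint test without them therefore cannot decide whether the genotypes differ in desatF or eloF.

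In females the lowest p-value belonged to desat1 (adjusted p = 0.0883). Female Obp50NegBCD had 1488, 1687, 1287 and 1297 CPM of desat1 and Obp50Neg 1403, 1162, 1063 and 1144. Female Obp50b had 902.9, 1513, 916.6 and 861.4 CPM, and Obp50d 799.5 and 832.8. Both Obp50d values lie below every other female library used (of those set aside, the Obp50Pos one had 745.8), and Obp50b has 3 libraries near 900 and 1 that reaches the level of Obp50NegBCD. The 902.9 CPM of 33_S25, an Obp50b library of line 19, depends on its scaling factor. Without scaling, line 19 had 1187 and 1393 CPM and line 4 had 940.3 and 872.9. Against Obp50NegBCD, Obp50b had a log2 difference of -0.46 (SE 0.17, adjusted p = 0.0648). Without the high Obp50b library, 34_S26 of line 19, the joint test gave an adjusted p of 0.0133. Without another Obp50b library, 54_S31, the joint test gave an adjusted p of 0.255. Of the 54 fits that left out 1 library, only 1 called desat1, the fit without 34_S26. The joint call was also made with no low count filter (adjusted p = 0.0329) and with a mean count of at least 10 (adjusted p = 0.0301). It was not made with DESeq2 size factors in edgeR (adjusted p = 0.0931), with no scaling factor (adjusted p = 0.0568) or with all 56 libraries (adjusted p = 0.0993).

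A set of 9 contrasts between genotypes, 6 of which share the Obp50Neg libraries, was tested in each sex for each gene, and none of the 63 gene and contrast combinations was called in males or in females. In males these contrasts called 0.0128% of all genes for Obp50Pos, 0 for Obp50a and for Obp50b, 0.0191% for Obp50c, 0.0128% for Obp50d and 0 for Obp50NegBCD, each against Obp50Neg. They called 0.0255% for Obp50b against Obp50NegBCD, 1.68% for Obp50cBCD against Obp50NegBCD and 0.293% for Obp50cBCD against Obp50c. In females the shares against Obp50Neg were 0.0255% for Obp50Pos, 1.89% for Obp50a, 1.13% for Obp50b, 1.35% for Obp50c, 0.823% for Obp50d and 0.102% for Obp50NegBCD. The other female contrasts called 14.5% for Obp50b against Obp50NegBCD, 0.287% for Obp50cBCD against Obp50NegBCD and 0.919% for Obp50cBCD against Obp50c. At an unadjusted p under 0.05 there were 9 combinations in males and 2 in females with edgeR. DESeq2 called 1 in males, desatF in Obp50b against Obp50Neg, and 0 in females, and limma-voom called 0 in both. For desatF and eloF in females the SE was wide where both sexes share one estimate of the spread. It was 0.98 and 0.66 for Obp50a against Obp50Neg, while female libraries varied by 20.4 and 20.7% (SD over mean). These contrasts, and the joint test in females, could thus miss changes of that size in these 2 genes.

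Among the male combinations with an unadjusted p under 0.05, 3 were of FASN2. Male Obp50cBCD had 985.9, 910.6, 732.6 and 555.5 CPM of FASN2, male Obp50NegBCD 1147, 1068, 1099 and 1289, and male Obp50c 1323, 1379, 963.4 and 936.9. Every Obp50cBCD library was below every Obp50NegBCD library, with a log2 difference of -0.53 (SE 0.20, adjusted p = 0.179). For separations of this kind between genotypes, in FASN2 here and in desatF and desat1 above, the share over all genes was not counted. The lowest Obp50cBCD library, J3_S53, is the one with the fewest counts of all, 14638498. It was also the lowest male library for desat1, at 791.1 CPM, and for Cyp4g1, at 9630 CPM. These ranks come with its scaling factor: without scaling it had 835.9 CPM of FASN2, 1190 of desat1 and 14490 of Cyp4g1, and was the lowest for none of them, while all 4 Obp50cBCD libraries (at most 988) stayed below the Obp50NegBCD ones (1094 or more).

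Since 6 of the 8 genotypes came as 2 separate lines, the spread between lines of one genotype could be measured. In males 3 of the 7 genes differed between lines of a genotype (desat2, desatF and eloF), where 10.3% of all genes did, and in females 5 of the 7 did (desat1, desat2, Cyp4g1, FASN2 and bond), where 48% of all genes did. All 7 had an unadjusted p under 0.05 in males, a count for which no share over all genes is given. The 8 male libraries that hold yolk protein transcripts include all male libraries of lines 1 and 4. Without them Obp50a and Obp50b drop out of the male test, and lines 5, 6 and 26 keep a single library each. That test is therefore not set beside the one over 6 genotypes. In females desatF and eloF were not called where both sexes share one estimate of the spread, but when females were fitted alone they were (adjusted p = 0.0325 and 0.00208). When males were fitted alone, desatF (adjusted p = 0.0754) and eloF (adjusted p = 0.0994) were not called, and desat1 (adjusted p = 0.0378) and FASN2 (adjusted p = 0.0323) were, beside desat2 (adjusted p = 0.0139).

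The smallest adjusted p between lines belonged in both sexes to desat2 (adjusted p = 0.00229 in males and 2.56e-06 in females). In Obp50NegBCD, line 26 had 5.50 and 6.36 CPM in females and 4.48 and 4.71 in males, while line 27 had 0.715 and 0.905 in females and 0.776 and 0.385 in males. In Obp50c, line 24 had 10.6 and 16.1 CPM in females and 3.31 and 6.62 in males, while line 6 had 1.29 and 1.77 in females and 0.602 and 1.53 in males. Neither pair of lines overlapped in either sex. Over the 6 genotypes the lines did not overlap for desat2 in 6 of 6 pairs in females and 4 of 6 in males, where 56.4% and 43.5% of such pairs did not over all genes. The ratio of the line means was 7.32 in females and 7.92 in males for Obp50NegBCD, and 8.73 and 4.65 for Obp50c.

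The same held in both sexes in Obp50a and Obp50b. In Obp50a, line 11 had 6.635 and 21.3 CPM of desat2 in females and 2.14 and 3.11 in males, over line 1 with 1.31 and 0.878 in females and 0.231 and 0.841 in males. In Obp50b, line 19 had 3.26 and 7.48 CPM in females and 3.54 and 3.71 in males, over line 4 with 1.43 and 1.89 in females and 0 and 1.11 in males. Again no library of the lower line reached one of the higher line.

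In Obp50Neg, line 31 had 8.71 and 3.20 CPM in females, above line 30 with 1.07 and 1.601. In males line 31 had 1.28 and 2.61 CPM and line 30 had 1.602 and 0.886, and these overlapped. In Obp50cBCD, line 5 had 10.7 CPM in its single female library, above line 21 with 2.05 and 1.745, and in males 1.80 and 3.27 against 1.27 and 2.25, which overlapped. The genotypes with 1 line had 2.87 CPM in the female Obp50Pos library, 0.836 and 0.430 in male Obp50Pos, 13.4 and 16.01 in female Obp50d, and 5.03 and 3.28 in male Obp50d.

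So the line that was higher in females was the higher one in males in 6 of 6 genotypes. Over the 14 lines the male and female line means of desat2, on a log2 scale after adding 0.5 CPM, had a Pearson r of 0.84 (permutation p = 0.0004, adjusted p = 0.0028 over the 7 genes) and a Spearman rho of 0.815 (permutation p = 0.00063, adjusted p = 0.00441), both two-sided with 100000 permutations. Without lines 1 and 24, the 2 farthest from the male median, r was 0.79. Over the 8 lines whose libraries all came from the first set of libraries it was 0.92. The opposite-strand neighbour CG17207 showed no like pattern: its correlation with desat2 over the 14 lines was -0.37 in males, where it had a mean of 10.2 CPM, and -0.22 in females, where it had 0.417. The paralog desat1 was at -0.20 in males and 0.10 in females. These 4 correlations are given as a description.

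**Figure D4:**
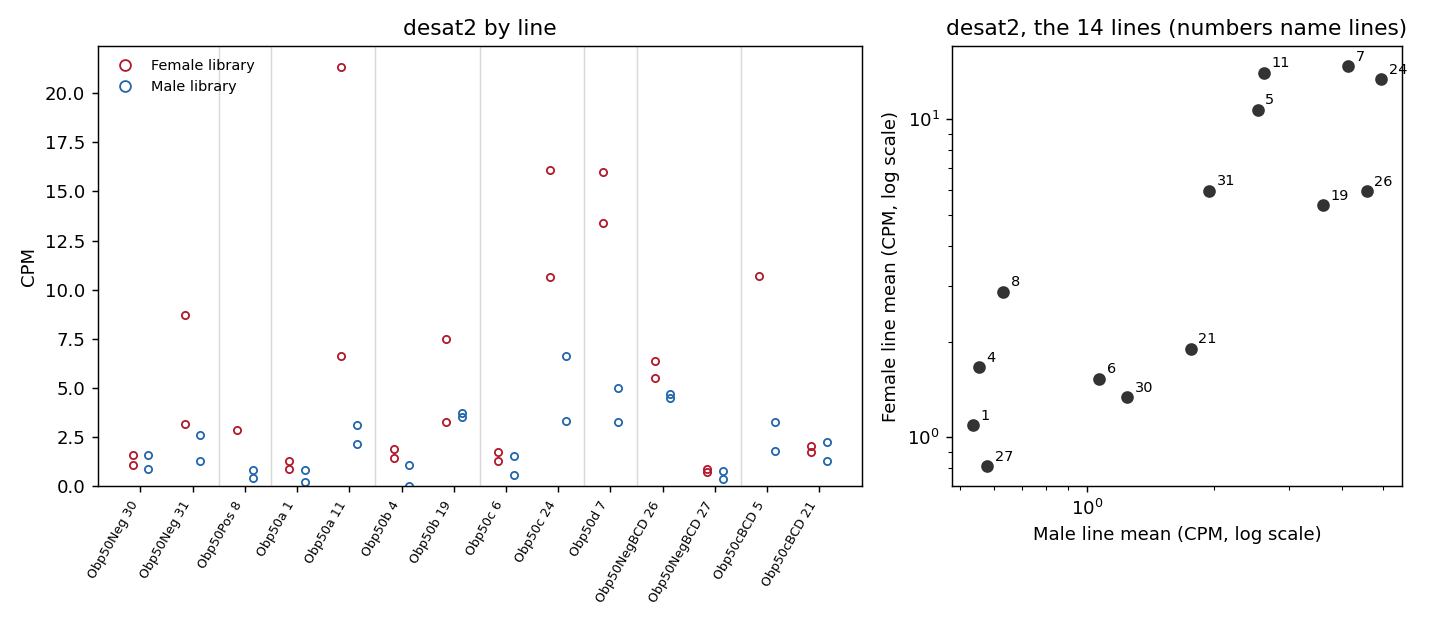
Left, desat2 in CPM in every library, by genotype and line (lines of one genotype between grey bars), red for females and blue for males. Right, the mean of each of the 14 lines in males against females (log axes, numbers name the lines). Lines 24 and 7 are high in both sexes and lines 27 and 1 are low in both.

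None of the other 6 genes had a correlation between the sexes over lines that passed the adjustment over the 7 genes. Cyp4g1 came closest, with r of 0.65 (permutation p = 0.0503, adjusted p = 0.176) and rho of 0.20 (permutation p = 0.501). Without lines 5 and 24 its r was -0.38, so that the relation rests on these lines. For desat1 r was 0.40 (permutation p = 0.161), for FASN2 -0.34 (permutation p = 0.226), for eloF 0.28 (permutation p = 0.382), for bond 0.22 (permutation p = 0.458) and for desatF 0.21 (permutation p = 0.496).

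Line 24 of Obp50c stood apart in both sexes. Its females had 2813 and 2582 CPM of Cyp4g1, the 2 lowest female values, and its males 9817 and 10490, where line 6 of the same genotype had 6699 and 5606 in females and 16320 and 16670 in males. Its females also had the lowest levels of desatF, 151.1 and 139.6 CPM against 293.6 and 235.8 in line 6, and of eloF, 35.7 and 27.96 against 85.7 and 67.4. In contrast its males had the 2 highest levels of FASN2, 1323 and 1379 CPM against 963.4 and 936.9 in line 6, and the 2 lowest of bond, 88.2 and 85.7 against 136.3 and 135.4. So within 1 line the synthase FASN2 was high in males while Cyp4g1 was low.

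Other transcripts of line 24 stood apart too. Its 2 female libraries had 8075 and 7123 CPM of yolk protein transcripts, where all other females had 16230 or more, and its 2 male libraries had 3262 and 3552 CPM of accessory gland transcripts, where all other males had 6377 or more. Their part in the levels of the hydrocarbon genes was not tested. Without the 4 libraries of line 24, Cyp4g1 was not called between lines in females (adjusted p = 0.26), and in males desat2 alone was called (adjusted p = 0.0148), with desatF at 0.0736 and eloF at 0.122.

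The female lines with the widest gaps in FASN2 and bond were looked at next, chosen after their values had been seen. Line 19 of Obp50b had 138.7 and 181.3 CPM of FASN2 and line 4 had 299.8 and 274.3, while for bond line 19 had 56.8 and 88.4 and line 4 had 42.3 and 42.6. Line 11 of Obp50a had 221.8 and 182.2 CPM of FASN2 against 315.6 and 283.2 in line 1, and 60.1 and 85.4 of bond against 46.2 and 40.1. Other genotypes went the other way: in Obp50Neg and in Obp50c the line with less FASN2 (31 and 24) also had less bond, with 40.9 and 46.3 CPM in line 31 against 58.9 and 56.2 in line 30, and 40.4 and 43.5 in line 24 against 57.2 and 62.7 in line 6. The 2 lines did not overlap in females in 5 of 6 genotypes for FASN2 and for bond, where 56.4% of such pairs did not over all genes.

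**Figure D5:**
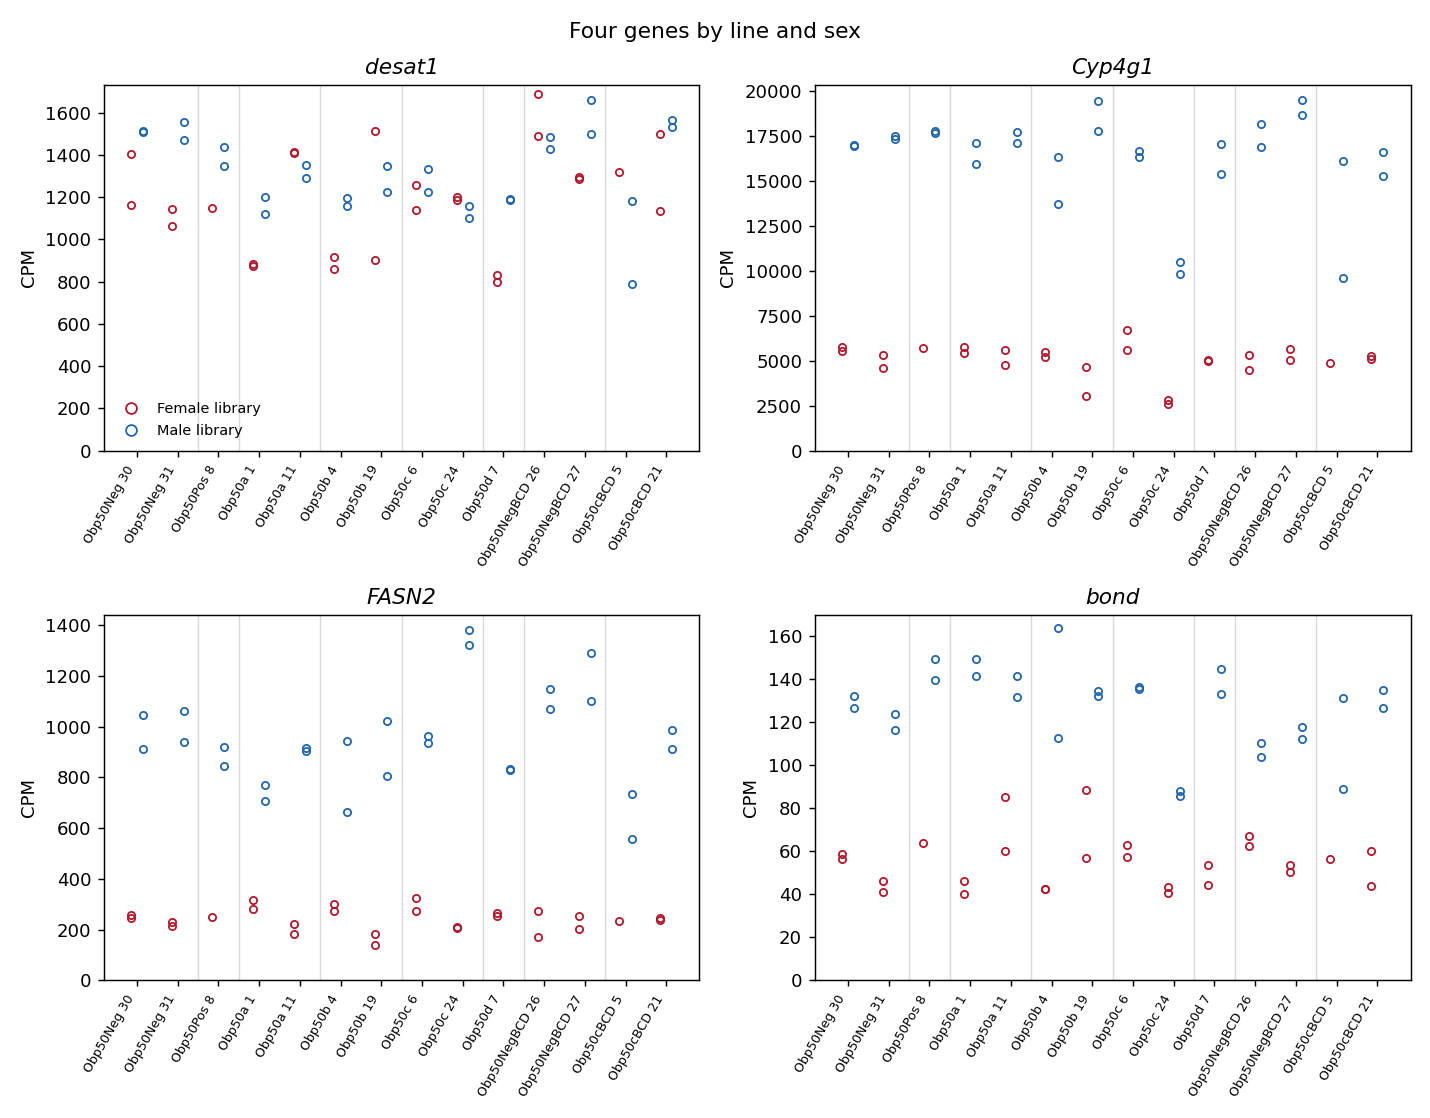
CPM of desat1, Cyp4g1, FASN2 and bond in every library, by genotype and line, with red circles for females and blue for males and vertical axes from 0. The 2 male libraries of line 24 lie low for Cyp4g1 (9817 and 10490) and bond, and high for FASN2 (1323 and 1379).

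A list of 49 other genes that act in or near the pathway was read beside the 7, and 48 passed the filter on low counts. In the sex comparison 47 of the 48 were called, where 83% of all genes were, with 40 higher in males and 7 higher in females, where 43.6% and 39.4% of all genes were, with a median log2 difference of -0.998 against -0.10 over all genes. All 3 genes of fatty acid synthesis, ACC, FASN1 and FASN3, were higher in males, as were 16 of 17 other elongases and 11 of 14 fatty acyl-CoA reductases that were tested. The largest differences were those of the elongases Elo68alpha (log2 difference -6.87, SE 0.35) and CG31141 (-6.85, SE 0.28), and of the reductase gene CG13091, written Sgp in the table (-6.83, SE 0.29), all higher in males. Elo68alpha is known to be expressed in the male reproductive tract. The smallest called differences were those of spidey, the ketoacyl-CoA reductase of the elongation cycle (0.20, SE 0.08), of the ecdysone receptor EcR (0.38, SE 0.09), and of Hnf4, a nuclear receptor that directs lipid metabolism in oenocytes (-0.40, SE 0.07).

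A group of 4 elongase genes next to eloF on chr3R was singled out after their values had been seen. CG8534 (chr3R:9812747-9813939), on the plus strand like eloF, was higher in females, with means of 0.844 CPM in females and 0.1455 in males (log2 difference 2.87, SE 0.31). On the other side CG16904 (chr3R:9815928-9816979), CG9459 (chr3R:9817428-9818395) and CG9458 (chr3R:9818914-9819877), on the minus strand, were higher in males, with log2 differences of -1.32, -1.40 and -1.39. CG16904 had 124.5 CPM in females and 296.7 in males. So a row of 5 elongase genes holds the strongly female-biased eloF beside 3 male-biased ones.

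Of the 48 genes, 0 were called between genotypes in males, where 2.98% of all genes were, and 5 in females, where 24.6% were. In the interaction of sex and genotype 0 were called, against 1.97% of all genes. Between lines 16 were called in males and 35 in females, where 10.3% and 48% of all genes were.

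The genes whose line means were most like each of the 7 were taken by Pearson correlation over the 14 lines of one sex, among 8251 or 8252 genes in males and 7697 or 7698 in females with a mean of 10 CPM or more. They are a description: the points share library depth and scaling. For desatF in males these were yl, the vitellogenin receptor of the oocyte (r = 0.99), Vm26Aa, an eggshell protein gene (0.99), and Yp2 (0.99), and for eloF in males the same 3 genes at 0.96, 0.96 and 0.95. In females desatF was most like Adi1 (0.95), CG6048 (0.945) and the elongase CG16904 (0.93), and eloF most like CG6048 (0.96), the reductase gene CG8306 (0.945) and mRpS9 (0.94). The pair desatF and eloF had r = 0.87 in females and 0.98 in males, with Spearman rho of 0.82 and 0.79. In females eloF and Cyp4g1 had r = 0.89, with rho of 0.47.

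For Cyp4g1 the most alike were CG15408 (0.97), CG13284 (0.95) and CG31418 (0.95) in males and Idgf4 (0.96), Fmo-2 (0.95) and Act87E (0.94) in females. For FASN2 they were the lipophorin receptor LpR1 (0.97), RtGEF (0.96) and CG13917 (0.94) in males and beta-Spec (0.93), cher (0.91) and Col4a1 (0.90) in females. For bond they were Clic (0.955), CG7781 (0.93) and Tsp42Ee (0.93) in males and ubl (0.95), Rtnl1 (0.94) and Vps2 (0.94) in females. For desat1 they were nec (0.95), CG10680 (0.95) and ScsbetaA (0.94) in males and CG7382 (0.99), mRpS26 (0.98) and RpL11 (0.97) in females. No gene was shared between the sexes for any of the 7.

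The line pattern of desat2 had fewer close companions in males, with CG5953 (0.73), Kif3C (0.68) and CG7236 (0.68). In females the closest was lncRNA:CR45267 (r = 0.94), at 2.17 CPM in its lowest line and 76.0 in its highest, then CG30403 (0.86) and ERp60 (0.84).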

How the data were processed

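RNA was extracted from pools of whole flies, ribosomal RNA was depleted, and libraries were sequenced on a NovaSeq. The authors aligned reads with GSNAP to release 6 of the genome and counted fragments over exons with featureCounts 1.6.4 without strand, and the deposited values are raw counts per gene. Of 56 libraries, 54 were used, with a median of 26655184 counts (14638498 to 53517693), and the number of libraries and their depth limit the precision of genes with few counts, such as desat2 and the male values of desatF and eloF.

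Tests were run on genes whose median count was 2 or more and which were detected in 25% or more of the libraries, using edgeR 4.0.16 (R 4.3.3, TMM factors, quasi-likelihood F tests) and a mean for each sex and genotype, or for each sex and line. Benjamini-Hochberg adjustment ran over all 15675 genes, with a threshold of 0.05 for each comparison. The SE of a log2 difference was derived from its F statistic. The fits were tested on simulated data with the same dispersion for all genes and no outlying libraries. That check does not tell how the tests behave for genes such as desatF, eloF and desat2. Marker sums and ratios to yolk protein transcripts used library totals with no scaling factor. Correlations over lines used log2 of the line mean after adding 0.5 CPM and 100000 permutations. Named genes were the 7 genes, the 3 largest and 3 smallest called sex differences of the pathway list, and the 3 genes most alike in each sex. The 7 genes and all gene lists were chosen with earlier results of these data known. Alternatives were DESeq2 1.42.0, limma-voom 3.58.1 with the line as a random block, other scaling factors and filters, all 56 libraries, sums by line, each sex alone, the library set as a term, and each library left out. Leaving out the 8 male libraries with over 100 CPM of yolk protein transcripts, or the 4 libraries of line 24, was chosen after seeing the data.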

Additional observations from a re-analysis of the deposited data

Results flagged for a closer look

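Of 77 groups of 4 libraries or more, 9 held a library that stood far from the others by Dixon's test, where chance gives about 1 in 20. In males 7 of these 9 were desatF or eloF. For desatF the libraries were 24_S41 of Obp50NegBCD (15.42 CPM), 49_S29 of Obp50a (13.04 CPM), 61_S22 of Obp50c (12.84 CPM) and 57_S47 of Obp50cBCD (5.636 CPM). For eloF they were 61_S22 of Obp50c (6.12 CPM), 24_S41 of Obp50NegBCD (4.772 CPM) and 49_S29 of Obp50a (4.407 CPM). All 4 libraries are among the 8 male libraries with over 100 CPM of yolk protein transcripts. In females they were desat1 in 34_S26 of Obp50b (1513 CPM, above its group) and desatF in 1_S1 of Obp50Neg (197.5 CPM, below its group). Without scaling 34_S26 had 1393 CPM of desat1, against 1187 in 33_S25 of the same line.

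The 2 female libraries that were set aside gave 14 values, of which 5 were above every female Obp50Neg library. Library 55_S45 of Obp50cBCD had 1472 CPM of desat1, 262.7 of desatF, 66.11 of eloF and 77.36 of bond, all inside the range of the females used. Library J2_S52 of Obp50Pos had 335.9 CPM of FASN2, above the highest female used (323.4), while its 28.5 CPM of bond and 745.8 CPM of desat1 were below the lowest (40.1 and 799.5).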

How the results depend on the processing

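The sex difference of all 7 genes kept its direction in every fit compared, 54 of which left out 1 library. The single-gene values of DESeq2 were not among them. The call held in 446 values and was lost in 2: desat1 with a mean count of at least 10 (-0.13) and with counts summed by sex and line (-0.181). Of the 7 genes, the number called between genotypes in males was 0, but 2 with DESeq2. In females it was 0, but 1 with DESeq2, with no low count filter and with a mean count of at least 10. Between lines in males it was 3, but 6 with DESeq2. It was 5 with DESeq2 size factors, with no scaling factor, with no low count filter and with a mean count of at least 10. It was 1 without line 24, a test in which Obp50c took no part. With DESeq2 size factors 10.7% of all genes were called between male lines, against 10.3% in the main fit. Shares for the other settings are not given here. With males fitted alone the number of the 7 called between male lines was again 3, but desat1, desat2 and FASN2 in place of desat2, desatF and eloF. Of 63 contrasts, 1 was called in males with DESeq2, and 1 in females with no low count filter and with a mean count of at least 10. The cause of these changes was not tested.

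Leaving out 1 library at a time gave 0 to 2 genes between genotypes in males, 0 to 1 in females, 2 to 7 between lines in males, 4 to 5 in females, and 0 to 1 contrasts in either sex. For male lines the count was 7 without 57_S47 of Obp50cBCD, and 5 without 36_S28 or J1_S51 of Obp50b. Between male genotypes desatF was called without 24_S41, 35_S27, 49_S29, 57_S47 or 61_S22, and eloF also without 24_S41 or 61_S22. The male contrast was called without 24_S41 (desatF, Obp50b against Obp50Neg), and the female one without 19_S11 of Obp50NegBCD or 34_S26 of Obp50b (desat1, Obp50b against Obp50NegBCD). Line and contrast tests were rerun for the sex of the library left out. Each library carries an identifier of its own in the labels, so that no replicate number pairs libraries across groups. The sexes share lines, a pairing that the main test of the sex difference does not use. With the line as a random block in limma-voom all 7 sex differences were called. Low counts limit desat2 in both sexes, at 0 to 181 in males and 16 to 390 in females.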
